A study of Mus musculus with 16 samples.

Results

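The genes described here are 10 secreted or receptor genes of neutrophil recruitment and type 17 immunity: Cxcl1, Cxcl2, Cxcl3, Cxcl5, Cxcl15, Csf3, Il17a, Il17f, Il17ra and Il6. They were chosen by name. Each was represented by the probe sets whose annotation gave its symbol alone, and each had 1 such probe set, so that the 10 are 10 of the 19938 genes measured. Whole lung RNA was hybridised to 16 Affymetrix whole-transcript arrays, 4 for each of 4 groups of mice. WT saline and WT HDM were wild-type B6129SF2/J mice. KO saline and KO HDM were mice with a targeted disruption of Vldlr, which encodes the receptor for very low density lipoprotein, for which the labels used here name no strain. HDM groups were given 25 µg of house dust mite extract, an inhaled allergen that produces asthma-like airway inflammation, in 10 µl through the nose on 5 days of each week for 6 weeks. Saline groups were given saline in its place. The labels used here limit the disruption to no tissue or cell type and give no age of the mice.

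In the mouse lung, neutrophils are drawn out of the blood by CXC chemokines that carry a glutamate-leucine-arginine motif and act on the receptor Cxcr2. Epithelial cells make Cxcl5 and Cxcl15, whereas Cxcl1, Cxcl2 and Cxcl3 are made quickly by many cell types after an inflammatory stimulus. Il17a and Il17f, released by T helper 17 cells and gamma-delta T cells, act on the receptor chain Il17ra of epithelial cells and fibroblasts and raise the production of these chemokines, of Il6 and of Csf3 (granulocyte colony-stimulating factor). Csf3 drives the formation and release of neutrophils from the bone marrow, and Il6 helps T cells to enter the type 17 programme.

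Values are RMA levels on the log2 scale. A difference of 1 between groups is a 2-fold difference, and levels of different probe sets cannot be compared with each other. All differences below are HDM minus saline or knockout minus wild type, tested with limma over all genes, and a gene passed at a Benjamini-Hochberg adjusted p under 0.05. Array medians lay between 8.78 and 8.85. Cxcl1, Cxcl3, Csf3, Il17a, Il17f and Il6 lay below these medians on all 16 arrays. So did Cxcl2 on every array but WT HDM 4, and Cxcl5 on every HDM array (7.25 to 7.91). Whether their probe sets lay above background was not assessed. Vldlr itself was at 10.27 to 10.92 on the 8 WT arrays and at 9.40 to 9.91 on the 8 KO arrays. Among saline arrays, WT saline 2 and 3 stood out. Their levels of Rnase2a, an eosinophil-associated ribonuclease named here after its values were seen, were 11.47 and 11.22, against 6.63 to 9.68 on the other 6 saline arrays. Among KO HDM arrays, KO HDM 4 lay apart in some of the marker lists described below. The mean of the macrophage and monocyte markers was 10.24 on it, against 10.71 to 10.87 on the others. For club cell markers it was 11.91 against 11.46 to 11.65, and for clock genes 10.18 against 10.06 to 10.17. Shares of all genes that passed with single arrays left out are not given here. The labels call the arrays of a group biological replicates without saying how many animals lay behind each. A p-value therefore speaks of the spread among these arrays and not of a stated number of animals.

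Of the 10 genes, Cxcl5 alone passed with HDM, and it fell in both genotypes. A gene that did not pass is not thereby shown to be unchanged. In wild type, 1 of 10 passed, against 17.6% of all genes (7.86% higher and 9.72% lower). In the knockout, 1 of 10 passed, against 8.84% of all genes. Between the genotypes, 0 of 10 passed under saline, where 0.231% of all genes did, and 0 of 10 passed under HDM, where 11.7% did. For the interaction, which subtracts the wild-type HDM change from that of the knockout, 0 of 10 passed, against 0.802% of all genes. At an unadjusted p under 0.05 in the same limma fit, the counts were 3, 3, 0, 4 and 2 of 10 in these 5 comparisons, beside 35.2%, 22.7%, 7.81%, 26.5% and 15.6% of all genes. The median change of the 10 genes was -0.065 in wild type and -0.11 in the knockout, beside -0.051 and -0.028 over all genes.

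**Figure D1:**
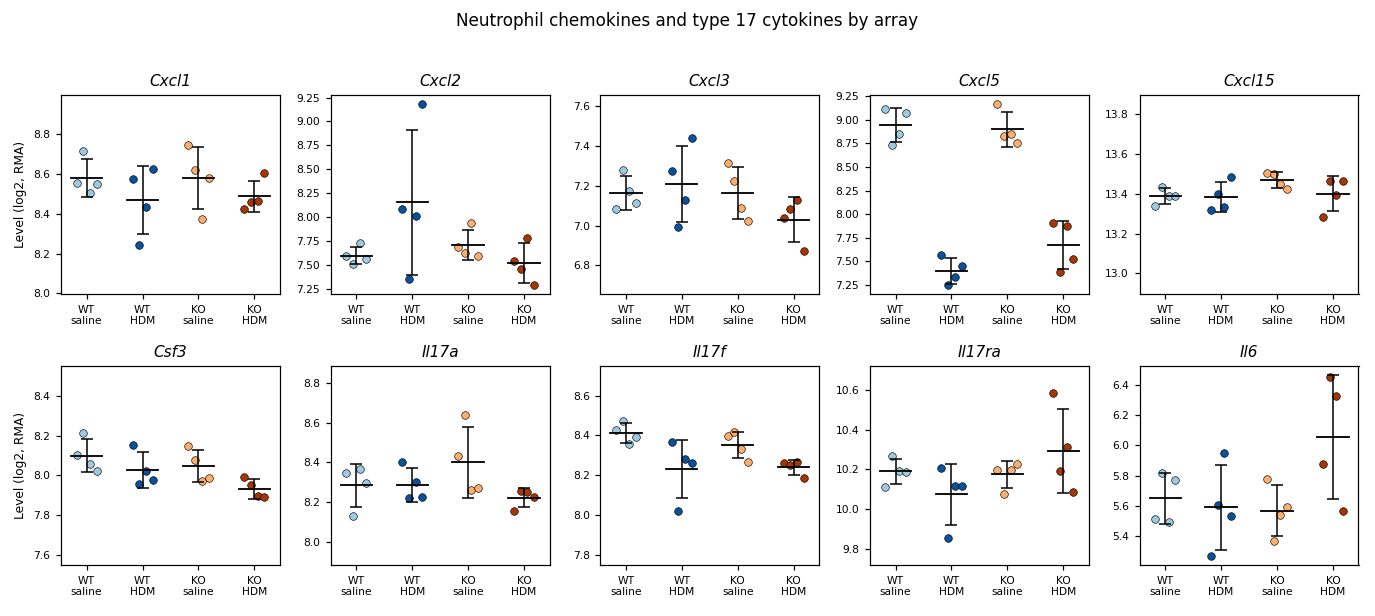
Log2 level (vertical axis, one scale per panel) of each of the 10 genes on every array, by group along the horizontal axis. Points are arrays, bars the mean and error bars the SD of 4 arrays. The Cxcl5 panel shows the saline arrays at 8.74 to 9.16 and the HDM arrays at 7.25 to 7.91.

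Cxcl5 is made mainly by alveolar and airway epithelium and binds Cxcr2. Its level on the WT saline arrays was 9.12, 8.74, 8.85 and 9.07 (mean 8.94 ± 0.18, SD, n = 4), and on the WT HDM arrays 7.56, 7.25, 7.34 and 7.45 (7.40 ± 0.14, SD, n = 4). On the KO saline arrays it was 9.16, 8.83, 8.85 and 8.75 (8.90 ± 0.18, SD, n = 4), and on KO HDM 7.91, 7.39, 7.87 and 7.52 (7.67 ± 0.26, SD, n = 4). Every HDM array lay below every saline array, and the lowest saline array and the highest HDM array were 8.74 and 7.91. In wild type Cxcl5 was 2.92-fold lower with HDM, a log2 change of -1.55 (SE 0.12, 95% interval -1.80 to -1.29, adjusted p = 3.24e-06, limma). In the knockout it was 2.34-fold lower, a log2 change of -1.23 (SE 0.12, 95% interval -1.48 to -0.97, adjusted p = 9.09e-06, limma). As the RNA came from whole lung, fewer cells of a type and less RNA per cell cannot be told apart.

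The order of the Cxcl5 group means was WT saline, KO saline, KO HDM and WT HDM. The first pair of neighbours differed by -0.046 (95% interval -0.30 to 0.21, adjusted p = 0.981, limma), which is within their spread. Under HDM the knockout was 0.27 above wild type (95% interval 0.018 to 0.53), and this did not pass (adjusted p = 0.157, limma), with WT HDM 1 above the lowest KO HDM arrays. The interaction was 0.32 (95% interval -0.042 to 0.68, adjusted p = 0.382, limma), so that a difference in the size of the fall between genotypes was not shown. With 1 array left out at a time the fall lay between -1.61 and -1.49 in wild type and between -1.30 and -1.13 in the knockout, and it passed each time. Without both WT saline 2 and 3 it was -1.70 in wild type (adjusted p = 2.36e-05, limma).

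**Figure D2:**
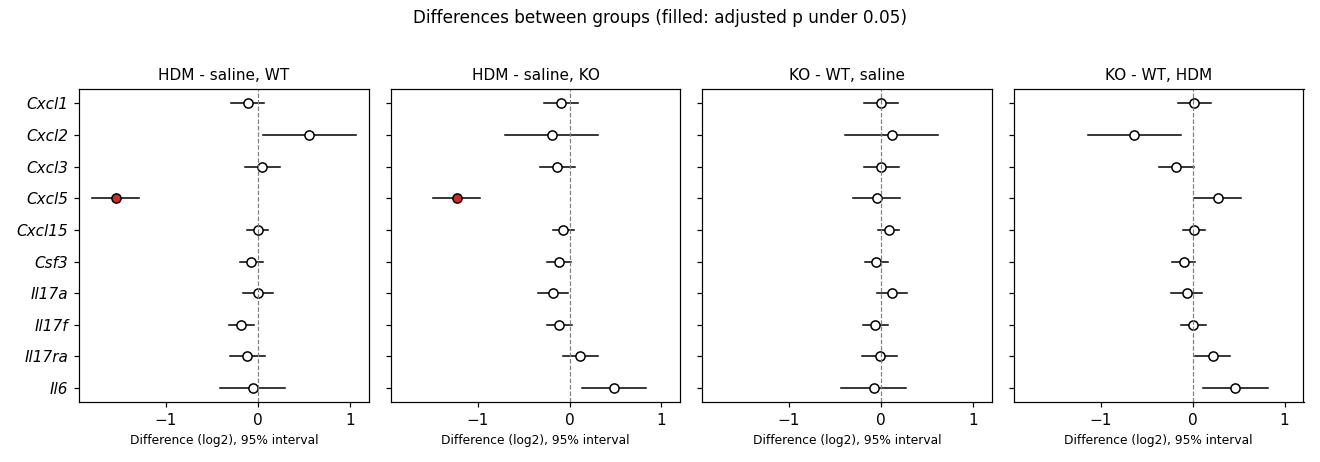
Difference in log2 level (horizontal axis) of the 10 genes (vertical axis) in 4 comparisons, with 95% intervals from limma. Filled points passed at an adjusted p under 0.05, which Cxcl5 did with HDM in wild type (-1.55) and in the knockout (-1.23).

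Cxcl1, Cxcl2 and Cxcl3 are close relatives that act on Cxcr2 and lie in the same cluster on mouse chromosome 5 as Cxcl5 and Cxcl15, where the order is Cxcl5, Ppbp, Pf4, Cxcl3, Cxcl15, Cxcl1, Cxcl2 in the GRCm38.p6 reference. How far their probes bind each other's transcripts was not assessed. RefSeq promoter entries matched 7 of the 10 genes. Cxcl5, Csf3 and Il17ra had no entry and were not searched, so nothing is said here of motifs at Cxcl5. The 150 bases before the start of the gene held the classical NF-kB consensus, a motif of 10 letters searched on both strands, in 4 of the 7 (Cxcl1, Cxcl2, Cxcl3 and Il6), and in 4.6% of all 32851 promoters searched over the same length. The hexamer CACGTG, the E-box of the clock proteins, was in 0 of the 7 and in 4.3% of all. The windows of the 3 neighbours are printed because they carry the same run of 11 letters at different distances from the start, with that of Ccl20, an epithelial chemokine described with the IL-17 target genes, beside them. They are on the plus strand at chr5:90891095-90891244, chr5:90903749-90903898, chr5:90785951-90786100 and chr1:83116616-83116765 (GRCm38.p6), and capitals mark the matched letters, which in the first 3 join matches on both strands that overlap.
Cxcl1: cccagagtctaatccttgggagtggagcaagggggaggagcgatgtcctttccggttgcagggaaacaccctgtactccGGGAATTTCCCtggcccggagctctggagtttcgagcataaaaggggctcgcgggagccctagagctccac
Cxcl2: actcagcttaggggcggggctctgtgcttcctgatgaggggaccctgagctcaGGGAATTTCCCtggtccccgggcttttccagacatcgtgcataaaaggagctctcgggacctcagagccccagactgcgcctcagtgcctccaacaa
Cxcl3: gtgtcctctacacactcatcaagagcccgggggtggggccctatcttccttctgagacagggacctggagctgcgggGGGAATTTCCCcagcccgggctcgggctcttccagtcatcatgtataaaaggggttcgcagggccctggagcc
Ccl20: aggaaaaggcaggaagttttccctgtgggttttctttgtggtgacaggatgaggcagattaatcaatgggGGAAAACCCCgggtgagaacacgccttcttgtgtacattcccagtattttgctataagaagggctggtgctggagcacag
A match of letters is a description and does not show a bound site. The capitals begin 71 bases before the start in Cxcl1, 97 in Cxcl2, 73 in Cxcl3 and 80 in Ccl20.

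The level of Cxcl2, a chemokine made quickly by macrophages and epithelium, was 7.60, 7.51, 7.73 and 7.56 on the WT saline arrays. It was 8.09, 7.36, 8.01 and 9.18 on the WT HDM arrays, the widest spread of any group of the 10 genes (SD 0.75, n = 4). On the KO saline arrays it was 7.69, 7.63, 7.94 and 7.60, and on KO HDM 7.55, 7.46, 7.79 and 7.29. Of the WT HDM arrays, 3 lay above every array of the other groups and WT HDM 2 lay below all WT saline arrays, so that the groups overlapped. The change was 0.56 in wild type (95% interval 0.052 to 1.06, adjusted p = 0.109, limma) and -0.19 in the knockout (95% interval -0.70 to 0.31, adjusted p = 0.676, limma). The knockout was at -0.64 from wild type under HDM (adjusted p = 0.094, limma), and the interaction was -0.75 (95% interval -1.47 to -0.036, adjusted p = 0.293, limma). These values moved in both directions with single arrays. Without WT HDM 2 the wild-type change was 0.82 (adjusted p = 0.0149, limma) and the genotype difference under HDM was -0.90 (adjusted p = 0.0182, limma), and both passed. Without WT HDM 4, the highest array, the wild-type change was 0.22 (adjusted p = 0.320, limma), the genotype difference -0.30 (adjusted p = 0.233, limma) and the interaction -0.41 (adjusted p = 0.368, limma).

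Cxcl1 and Cxcl3 were nearly level. Cxcl1 was at 8.56, 8.72, 8.50 and 8.55 on WT saline, at 8.57, 8.24, 8.43 and 8.63 on WT HDM, at 8.75, 8.62, 8.38 and 8.58 on KO saline and at 8.43, 8.46, 8.46 and 8.60 on KO HDM. Its groups overlapped throughout, with changes of -0.11 in wild type (95% interval -0.29 to 0.070) and -0.092 in the knockout (95% interval -0.27 to 0.090). Cxcl3 was at 7.08, 7.28, 7.17 and 7.12 on WT saline, at 7.28, 6.99, 7.13 and 7.44 on WT HDM, at 7.32, 7.23, 7.09 and 7.02 on KO saline and at 7.04, 7.08, 7.13 and 6.87 on KO HDM. Its changes were 0.047 in wild type (95% interval -0.14 to 0.23) and -0.13 in the knockout (95% interval -0.32 to 0.054). None of these passed (adjusted p from 0.358 to 0.732 in the 4 tests of HDM, limma), and the intervals leave room for changes of up to 0.32 in size.

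Cxcl15, or lungkine, is a chemokine of airway and alveolar epithelium that is secreted into the airspace. It lay at 13.34 to 13.43 on WT saline, 13.32 to 13.49 on WT HDM, 13.43 to 13.50 on KO saline and 13.28 to 13.47 on KO HDM, and these ranges overlapped. Its HDM change had 95% intervals of -0.12 to 0.11 in wild type and -0.18 to 0.046 in the knockout. The intervals of the HDM changes of Cxcl15 and Cxcl5, both of them epithelial chemokines, did not meet in either genotype.

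Markers of alveolar type 2 cells and of club cells, which are epithelial types that make these chemokines, moved with genotype and HDM. Under HDM, 5 of 12 type 2 and 7 of 9 club cell markers were lower in the knockout (11.7% of all genes passed). There 0 were higher, and 0 passed between genotypes under saline (0.231% of all genes). With HDM, 17.6% of all genes passed in wild type and 8.84% in the knockout. Of 12 type 2 cell markers, 4 rose and 1 fell in wild type, where 2 rose without WT HDM 4 or without both WT saline 2 and 3 and none fell without WT saline 1 or 3, WT HDM 1 or 4 or both WT saline 2 and 3. In the knockout 0 rose and 1 fell, where 3 fell without KO HDM 4 and none without KO saline 2, 3 or 4 or KO HDM 1, 2 or 3. Of 9 club cell markers, 1 rose in wild type, where none did without WT saline 1, 2 or 3 or WT HDM 2, 3 or 4 and 2 did without WT saline 4. In the knockout 7 fell, among them Scgb3a2 (-1.05, adjusted p = 0.000167, limma) and Cyp2f2 (-0.43, adjusted p = 0.00191, limma), and 4 fell without KO HDM 1 or KO HDM 3. The mean log2 level over the 12 type 2 cell markers was 12.76 to 12.80 on WT saline and 12.85 to 12.96 on WT HDM, so that every WT HDM array was higher. On KO saline it was 12.81 to 12.88 and on KO HDM 12.66 to 12.85. Over the 9 club cell markers the mean was 11.85 to 12.29, 11.99 to 12.32, 11.97 to 12.09 and 11.46 to 11.91 on WT saline, WT HDM, KO saline and KO HDM. The part of the cell makeup in the Cxcl5 result was not tested.

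Genes of the circadian clock also moved with HDM. Of 16 measured clock genes, 8 rose and 1 fell in wild type, and 3 rose in the knockout, where 17.6% and 8.84% of all genes passed. Between genotypes under HDM, 2 were higher and 7 lower in the knockout, where 11.7% of all genes passed. Dbp, a clock output gene, was at 9.45 to 9.68 on WT saline and 10.60 to 11.15 on WT HDM, and at 9.47 to 9.86 on KO saline and 9.51 to 10.19 on KO HDM. Times of tissue collection were not given in the labels used here, and the part of the clock in these results was not tested. Without both WT saline 2 and 3, 5 clock genes rose in wild type.

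Csf3 acts on neutrophil precursors through the receptor Csf3r. Its level was 8.10, 8.21, 8.06 and 8.02 on WT saline and 8.15, 7.96, 8.02 and 7.98 on WT HDM. It was 8.15, 8.08, 7.97 and 7.99 on KO saline and 7.99, 7.95, 7.89 and 7.89 on KO HDM. The groups overlapped, and the lowest values were on KO HDM arrays. The changes were -0.071 in wild type (95% interval -0.20 to 0.056, adjusted p = 0.403, limma) and -0.11 in the knockout (95% interval -0.24 to 0.012, adjusted p = 0.273, limma).

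Il17a and Il17f encode the defining cytokines of type 17 cells. Neither rose with HDM. Il17a was at 8.35, 8.13, 8.37 and 8.30 on WT saline and at 8.40, 8.22, 8.30 and 8.23 on WT HDM, a difference of 0.0031 (95% interval -0.16 to 0.17). It was at 8.43, 8.64, 8.26 and 8.27 on KO saline and at 8.16, 8.26, 8.25 and 8.22 on KO HDM. The KO groups did not overlap, but the closest arrays of both were at 8.26, and the change of -0.18 did not pass (95% interval -0.34 to -0.013, adjusted p = 0.184, limma). Whether these probe sets lay above background was not assessed, since no detection calls were used, and a transcript present in few cells of the whole lung may be missed.

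Il17f was at 8.43, 8.47, 8.36 and 8.39 on WT saline and at 8.36, 8.02, 8.28 and 8.26 on WT HDM. Of the WT HDM arrays, 3 lay below all WT saline arrays. The change was -0.18 (95% interval -0.32 to -0.045, adjusted p = 0.060, limma), and it passed without WT HDM 1 (-0.23, adjusted p = 0.0273, limma). Without WT HDM 2, the lowest array, it was -0.11 (adjusted p = 0.185, limma). On KO saline Il17f was at 8.39, 8.41, 8.33 and 8.27 and on KO HDM at 8.26, 8.25, 8.26 and 8.18, a change of -0.11 (95% interval -0.25 to 0.025, adjusted p = 0.326, limma).

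Il17ra, the receptor chain shared by Il17a and Il17f, was at 10.11, 10.27, 10.19 and 10.19 on WT saline and at 10.21, 9.86, 10.12 and 10.12 on WT HDM. It was at 10.19, 10.08, 10.20 and 10.23 on KO saline and at 10.58, 10.19, 10.31 and 10.09 on KO HDM. The HDM changes were -0.12 in wild type (95% interval -0.31 to 0.075) and 0.12 in the knockout (95% interval -0.073 to 0.31). Under HDM the knockout was 0.22 higher (95% interval 0.028 to 0.41, adjusted p = 0.128, limma), with overlapping groups. Without KO HDM 4 this difference was 0.29 and passed (adjusted p = 0.0334, limma), and without KO HDM 1 it was 0.12 (adjusted p = 0.417, limma), where the HDM change in the knockout was 0.022.

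Il6 was at 5.52, 5.82, 5.50 and 5.77 on WT saline and at 5.27, 5.61, 5.95 and 5.53 on WT HDM. It was at 5.78, 5.37, 5.54 and 5.59 on KO saline and at 5.87, 6.45, 6.32 and 5.57 on KO HDM. All 16 arrays, at 5.27 to 6.45, lay below the lowest array median of 8.78, and whether this probe set lay above background was not assessed. Of the KO HDM arrays, 3 lay above all KO saline arrays and 1 lay among them. The change was 0.49 in the knockout (95% interval 0.13 to 0.84, adjusted p = 0.0807, limma) and -0.059 in wild type (95% interval -0.41 to 0.29, adjusted p = 0.823, limma). The knockout was 0.46 above wild type under HDM (95% interval 0.11 to 0.81, adjusted p = 0.0802, limma), and the interaction was 0.54 (95% interval 0.048 to 1.04, adjusted p = 0.272, limma). These values depended on single arrays. Without KO HDM 4 the knockout change was 0.65 (adjusted p = 0.00906, limma) and the genotype difference 0.63 (adjusted p = 0.00822, limma), and without WT HDM 3 the genotype difference was 0.58 (adjusted p = 0.0311, limma). Without KO HDM 2, the highest array, the knockout change was 0.35 (adjusted p = 0.245, limma) and the genotype difference 0.33 (adjusted p = 0.241, limma).

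The receptors and growth factors around the neutrophil chemokines moved in both directions. Of 12 listed genes, Csf2ra, Csf2rb and Csf1 rose and Pf4 and Mif fell in wild type, and Csf2ra, Csf2rb, Csf1 and Csf1r rose in the knockout. Over all genes, 17.6% passed in wild type and 8.84% in the knockout. Csf2ra and Csf2rb, the chains of the GM-CSF receptor, changed by 1.04 and 0.68 in wild type and by 0.63 and 0.71 in the knockout (adjusted p from 0.00014 to 0.010, limma). Pf4, a platelet chemokine of the Cxcl5 cluster, changed by -0.41 in wild type (adjusted p = 0.0207, limma), and the call ended without WT saline 4 (-0.38, adjusted p = 0.0511) and without WT HDM 3 (-0.33, adjusted p = 0.0548), and also without both WT saline 2 and 3 (-0.42, adjusted p = 0.108). The Csf1 call in wild type ended without WT saline 1 or 2 or WT HDM 4 (adjusted p up to 0.0874) and without both WT saline 2 and 3 (0.39, adjusted p = 0.0667), and the Csf1r call in the knockout without KO saline 1 or 2 or KO HDM 1 or 3 (adjusted p up to 0.0592). Mif, named after its values were seen, changed by -0.29 (adjusted p = 0.041, limma). Ppbp, the other platelet chemokine of the cluster, likewise named after its values were seen, changed by -0.96 in wild type and -1.02 in the knockout and did not pass (SE 0.34, adjusted p = 0.0580 and 0.0716, limma). Of the genes that fell in wild type, none passed without WT saline 4, without WT HDM 3 or without both WT saline 2 and 3, and 1 passed without WT saline 1, 2 or 3 or WT HDM 2 or 4.

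Cxcr2, the receptor of the chemokines above, differed between genotypes under HDM. Its level was 9.77, 9.11, 9.62 and 9.46 on WT saline and 8.90, 9.12, 9.17 and 9.38 on WT HDM. It was 9.45, 9.45, 9.59 and 9.44 on KO saline and 9.79, 10.21, 11.11 and 9.43 on KO HDM. Every KO HDM array lay above every WT HDM array, a difference of 0.99 (SE 0.24, adjusted p = 0.0154, limma), and with 1 array left out it lay between 0.67 (without KO HDM 3) and 1.23 and passed each time. The HDM changes of -0.35 in wild type and 0.65 in the knockout did not pass (adjusted p = 0.304 and 0.105, limma), and neither did the interaction of 0.999 (adjusted p = 0.160, limma). Csf3r, the Csf3 receptor, was at 9.02 to 9.30 on WT HDM and 9.04 to 10.14 on KO HDM, and its difference of 0.32 did not pass (adjusted p = 0.262, limma).

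**Figure D3:**
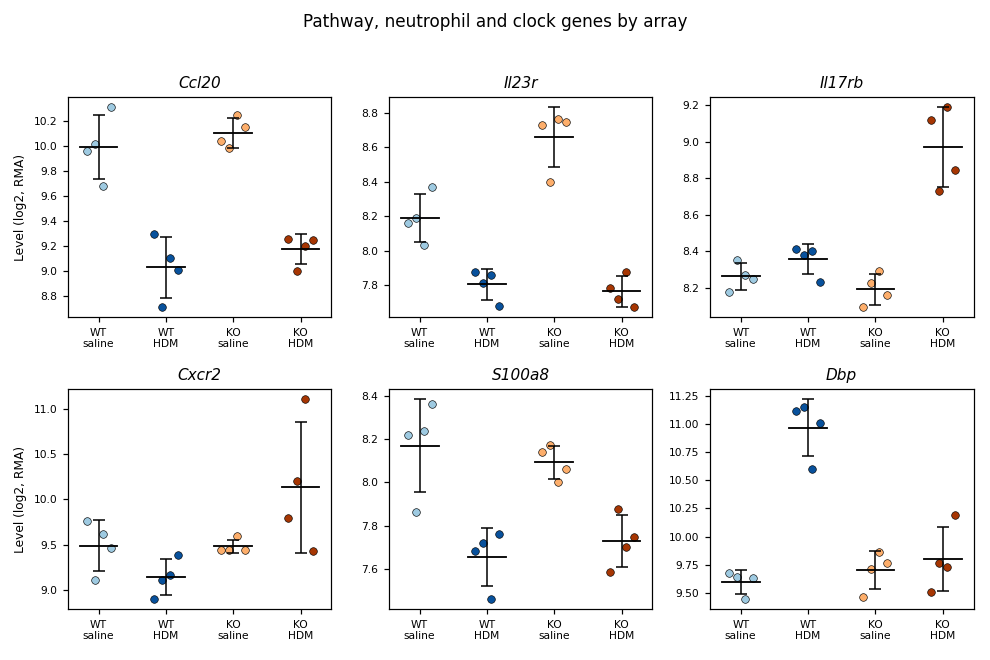
Log2 level (vertical axis, one scale per panel) of 6 genes of the surrounding pathways on every array, by group along the horizontal axis. Points are arrays, bars the mean and error bars the SD of 4 arrays. Ccl20 and S100a8 were lower with HDM in both genotypes, and Il17rb lay at 8.73 to 9.19 on KO HDM against 8.09 to 8.41 elsewhere.

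Target genes of IL-17 in epithelium moved in both directions. Of 21 listed, 2 rose and 6 fell in wild type and 2 rose and 4 fell in the knockout, with a median change of -0.11 and -0.065. The shares of all genes that passed were 17.6% and 8.84%. Ccl20, a chemokine that attracts cells with the receptor Ccr6, was at 9.96, 10.01, 9.68 and 10.31 on WT saline and 9.29, 8.71, 9.10 and 9.003 on WT HDM. On KO saline it was at 10.04, 9.98, 10.25 and 10.15 and on KO HDM at 9.25, 9.0007, 9.19 and 9.25. No HDM array reached a saline array, and Ccl20 changed by -0.96 in wild type and -0.93 in the knockout (SE 0.12, adjusted p = 0.000168 and 0.000157, limma). Il1b, which encodes interleukin-1 beta, changed by -0.61 in wild type (adjusted p = 0.00606, limma) and by -0.48 in the knockout (adjusted p = 0.0305, limma). In the knockout the Il1b call ended without KO saline 1, 2 or 3 or without KO HDM 1 or 4 (adjusted p up to 0.0915). The genes that rose were others: Pigr, which carries antibodies across epithelium, in wild type (0.67, adjusted p = 0.00458, limma), and the collagenase Mmp13 in the knockout (2.10, adjusted p = 0.00738, limma). Lcn2, a siderophore-binding protein of epithelium and neutrophils, did not pass in any comparison, with changes of 0.13 in wild type and -0.16 in the knockout. The knockout counts moved with single arrays: 6 rose without KO HDM 4, 1 without KO saline 1, 2, 3 or 4 or without KO HDM 2 or 3, and 2 fell without KO saline 1, KO saline 2 or KO HDM 1. In wild type 1 rose without WT saline 2, without WT saline 3 or without both. Between genotypes, Steap4, a metalloreductase, was higher in the knockout by 0.53 under saline (adjusted p = 0.0301, limma; 0.37, adjusted p = 0.438 without WT saline 2 and 3) and by 0.54 under HDM (adjusted p = 0.00375, limma). Under saline the Steap4 call also ended without WT saline 2 or 3 or without any 1 of the KO saline arrays (adjusted p up to 0.145).

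Genes of the type 17 cells themselves included Il23r, which fell in both genotypes. Of 17 measured, 1 rose and 4 fell in wild type and 1 rose and 1 fell in the knockout. Beside these, 17.6% and 8.84% of all genes passed. Il23r, the receptor chain through which interleukin-23 sustains these cells, was at 8.16, 8.19, 8.03 and 8.37 on WT saline and 7.88, 7.82, 7.86 and 7.68 on WT HDM. On KO saline it was at 8.73, 8.40, 8.76 and 8.75 and on KO HDM at 7.78, 7.72, 7.88 and 7.67. HDM and saline arrays did not overlap in either genotype, and the changes were -0.38 in wild type (adjusted p = 0.00724, limma) and -0.89 in the knockout (adjusted p = 6.24e-06, limma). The KO saline arrays all lay above the WT saline arrays, a difference of 0.47 that passed (adjusted p = 0.024, limma) but not without WT saline 1, 2 or 3 or KO saline 1, 3 or 4 (adjusted p up to 0.114), nor without WT saline 2 and 3 (0.39, adjusted p = 0.313). The interaction for Il23r was -0.51 (adjusted p = 0.0554, limma). Il23a, the specific subunit of interleukin-23, changed by -0.16 in wild type and 0.021 in the knockout and did not pass. Ccr6, the receptor of Ccl20 on type 17 and other lymphocytes, changed by -0.44 in wild type (adjusted p = 0.0333, limma), and this call ended without WT saline 1, 2 or 4 or WT HDM 2 or 4 (adjusted p up to 0.105), nor did it hold without both WT saline 2 and 3 (-0.45, adjusted p = 0.129). Of the genes that fell in wild type, 1 was left without WT saline 1, WT saline 2, WT HDM 4 or both WT saline 2 and 3, and 2 without WT HDM 2. In the knockout the 1 that rose, Maf (0.20, adjusted p = 0.0336, limma), was lost without KO saline 1 or 2 or KO HDM 1, 2, 3 or 4 (adjusted p up to 0.124). Markers of T cells in general were mixed. Of 13, 1 rose and 3 fell in wild type, where 17.6% of all genes passed. The 1 that rose, Cd4 (0.36, adjusted p = 0.0251, limma), did not pass without WT saline 1 or 3 or WT HDM 3 or 4 (adjusted p up to 0.0697) or without both WT saline 2 and 3 (adjusted p = 0.0817), and 1 fell without WT saline 3 or both WT saline 2 and 3. In the knockout, where 8.84% of all genes passed, 1 rose, Ctla4 (0.45, adjusted p = 0.0445, limma), and 1 fell. None rose there without KO saline 1, 2 or 4 or KO HDM 1, 2 or 3, and 2 fell without KO HDM 4. Their mean level was 9.56 to 9.65, 9.43 to 9.67, 9.55 to 9.75 and 9.56 to 9.72 in the order WT saline, WT HDM, KO saline, KO HDM. Their part in these results was not tested.

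Among the other cytokines and receptors of the IL-17 family, Il17rb was the one that passed with HDM in the knockout. Il17rb binds interleukin-25, a cytokine of type 2 immunity, and is not a receptor of Il17a. It was at 8.18, 8.35, 8.27 and 8.25 on WT saline and 8.41, 8.38, 8.40 and 8.23 on WT HDM. It was at 8.09, 8.22, 8.29 and 8.16 on KO saline and 9.12, 8.73, 9.19 and 8.85 on KO HDM. Every KO HDM array lay above the other 12 arrays, with a knockout change of 0.78 (adjusted p = 2.88e-05, limma), a genotype difference under HDM of 0.61 (adjusted p = 0.000654, limma) and an interaction of 0.68 (SE 0.12, adjusted p = 0.0175, limma). Without both WT saline 2 and 3 the interaction was 0.63 and did not pass (adjusted p = 0.118). Il25 itself changed by -0.22 in wild type (adjusted p = 0.0355, limma), a call that ended without WT saline 1, 2 or 3 or WT HDM 2 or 4 (adjusted p up to 0.107) or without both WT saline 2 and 3 (adjusted p = 0.181).

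Downstream of the IL-17 receptor, 1 of 14 measured signalling genes fell in wild type and 1 rose in the knockout. The shares of all genes that passed, for this and the next lists, were 17.6% in wild type and 8.84% in the knockout. Tnfaip3, the ubiquitin-editing enzyme A20 that limits NF-kB signalling, changed by 0.46 in the knockout (adjusted p = 0.00876, limma). The 1 that fell in wild type was Traf2 (-0.20, adjusted p = 0.034, limma), and it passed only with all arrays or without WT saline 1 or WT HDM 1 (adjusted p otherwise up to 0.199). Of 15 measured genes of the IL-6 pathway, 1 rose and 1 fell in wild type and 1 rose in the knockout. Jak2, the kinase of several cytokine receptors, rose by 0.36 in wild type and 0.44 in the knockout (adjusted p = 0.00313 and 0.000821, limma). Lif, an Il6 relative, changed by -0.18 in wild type (adjusted p = 0.049, limma), and this ended without WT saline 1, 2, 3 or 4 or WT HDM 2 or 4 (adjusted p up to 0.141) or without both WT saline 2 and 3 (adjusted p = 0.234). Il6ra, the receptor of Il6, was lower in the knockout under HDM by a difference of -0.33 (adjusted p = 0.0261, limma), and this ended without any 1 array but WT HDM 3 or KO HDM 4 (adjusted p up to 0.0881). Of 15 targets of NF-kB signalling, 2 rose and 2 fell in wild type and 3 rose and 2 fell in the knockout. The macrophage chemokine Ccl3 changed by 1.42 and 1.89 (adjusted p = 0.0185 and 0.00448, limma), and the prostaglandin synthase Ptgs2 by -0.49 and -0.52 (adjusted p = 0.00811 and 0.00668, limma). The Ccl3 call in wild type ended without WT saline 1 (1.29, adjusted p = 0.0566) and without WT HDM 4 (1.07, adjusted p = 0.0618), and without both WT saline 2 and 3 neither Ccl3 (1.62, adjusted p = 0.0623) nor Ptgs2 (-0.37, adjusted p = 0.121) passed there. Without WT HDM 4 or without both WT saline 2 and 3 none of the 15 rose in wild type, and in the knockout 1 rose without KO saline 1, 2 or 4 or KO HDM 1, 2 or 3 and 1 fell without KO saline 1, 2 or 3 or KO HDM 1 or 4.

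Most neutrophil markers that passed with HDM fell, though the counts depended on single arrays. Of 24 measured markers, 2 rose and 9 fell in wild type, with a median change of -0.23, and 3 rose and 6 fell in the knockout, with a median of -0.077. Over all genes, 7.86% passed higher and 9.72% lower in wild type, and 4.96% and 3.88% in the knockout. Of those that fell in wild type, Ltf and Cd177 lay above every array median. Ly6g, S100a8, S100a9, Prtn3, Camp, Trem1 and Ceacam10 lay below the lowest array median of 8.78 on all 16 arrays. Camp, at 8.01 to 8.40, and Prtn3, at 7.95 to 8.34, varied little. Whether these probe sets lay above background was not assessed. S100a8, an alarmin abundant in neutrophils, was at 8.22, 7.86, 8.24 and 8.36 on WT saline and 7.68, 7.72, 7.46 and 7.76 on WT HDM. It was at 8.14, 8.17, 8.003 and 8.06 on KO saline and 7.59, 7.88, 7.70 and 7.75 on KO HDM. HDM and saline arrays did not overlap within a genotype, with changes of -0.51 in wild type (adjusted p = 0.00257, limma) and -0.36 in the knockout (adjusted p = 0.0214, limma), the second of which ended without KO saline 1 or 2 or KO HDM 1 or 3 (adjusted p up to 0.0737). Its partner S100a9 changed by -0.27 and -0.36 (adjusted p = 0.0226 and 0.00611, limma), and the wild-type call ended without WT saline 1 or 3 or WT HDM 2 (adjusted p up to 0.0784). In the knockout the granule genes Ltf and Mmp8 changed by -1.18 and -1.03 (adjusted p = 9.68e-05 and 0.000124, limma). Retnlg and Itgam, which belong to neutrophils but are also expressed in other myeloid cells, rose by 1.59 and 0.69 in wild type and by 2.14 and 0.90 in the knockout (adjusted p from 5.47e-09 to 0.00548, limma). How far the markers that fell are also expressed in cells other than neutrophils was not assessed. The count of markers that fell in wild type was 2 without WT saline 1, 4 without WT HDM 2 and 5 without both WT saline 2 and 3, and the count that rose in the knockout was 6 without KO HDM 4. Their mean log2 level was 8.77 to 8.88 on WT saline, 8.64 to 8.76 on WT HDM, 8.85 to 8.91 on KO saline and 8.69 to 9.01 on KO HDM. Markers of other myeloid cells rose in the same RNA. Of 12 macrophage and monocyte markers, 6 rose and 0 fell in each genotype (10 rose without KO HDM 4 in the knockout), with a median change of 0.58 in both. Itgax, the integrin CD11c of alveolar macrophages and dendritic cells, rose by 1.16 and 1.61 (adjusted p = 0.00291 and 0.00021, limma). The mean level of these markers was 9.81 to 10.04 on WT saline, 10.13 to 10.73 on WT HDM, 9.98 to 10.15 on KO saline and 10.24 to 10.87 on KO HDM, so that saline and HDM arrays did not overlap within a genotype. Of 14 eosinophil and mast cell markers, 4 rose in wild type and 10 in the knockout, with a median change of 0.16 and 0.98, and 0 fell. Ccr3, the eotaxin receptor of eosinophils, rose by 1.78 and 2.60 (adjusted p = 4.45e-05 and 2.85e-07, limma). Their mean level was 7.99 to 8.63 on WT saline, 8.40 to 9.18 on WT HDM, 7.96 to 8.10 on KO saline and 9.28 to 9.78 on KO HDM. The part of the number of neutrophils or of these cells in the Cxcl5 result was not tested.

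**Figure D4:**
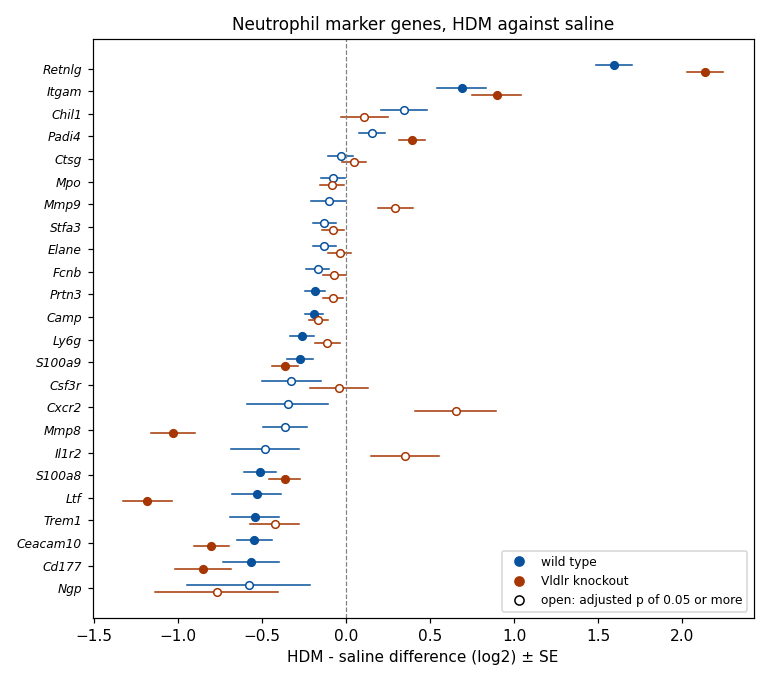
HDM minus saline difference in log2 level (horizontal axis) of the 24 measured neutrophil markers (vertical axis), with the SE from limma, in wild type and in the Vldlr knockout. Filled points passed at an adjusted p under 0.05, which 11 markers did in wild type and 9 in the knockout, most of them below 0. Over all genes, 17.6% and 8.84% passed.

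Of 8 listed CXC chemokines outside the neutrophil group, 1 passed in wild type (17.6% of all genes did), 3 in the knockout (8.84%) and 2 between genotypes under HDM (11.7%). Cxcl13, which guides B cells, fell by 1.05 in wild type (adjusted p = 0.0103, limma; -1.07, adjusted p = 0.0623 without WT saline 2 and 3). In the knockout Cxcl16 and Cxcl12 rose by 0.40 and 0.33 and Cxcl14 changed by -0.59 (adjusted p from 0.00272 to 0.0126, limma). The Cxcl12 call ended without KO saline 2 and without KO HDM 3 (adjusted p up to 0.0529). Under HDM Cxcl13 and Cxcl16 were higher in the knockout by 0.90 and 0.28 (adjusted p = 0.0275 and 0.0221, limma), and neither passed without WT HDM 2, KO HDM 1 or KO HDM 3 (adjusted p up to 0.0964 and 0.0832), nor Cxcl13 without KO HDM 2. The interaction passed for 0 of the 8 (1 without KO HDM 4).

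Genes whose levels ran most like Cxcl5 over the 16 arrays were Cd81, Ccl20, Ccl19 and Stra6, with Pearson's r of 0.947, 0.942, 0.936 and 0.929. Within groups, after each group's mean was removed, these r were 0.513, 0.398, 0.465 and 0.505, so that most of the likeness was in the difference between HDM and saline. For Il17a the most alike were Pik3r2, Igf1os, Cldn15 and Slc23a4, with r of 0.839, 0.816, 0.810 and 0.792, and 0.782, 0.783, 0.799 and 0.781 within groups. The arrays of a comparison share each library's RNA quality and processing, and these r are a description.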

How the data were processed

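Total RNA of whole mouse lung, 50 ng per array, was measured on 16 arrays in 4 groups of 4 (per the labels' protocols). The deposited table holds log2 values, 1 per probe set and array, for which the submitters' processing notes name RMA and Affymetrix Expression Console, with versions and annotation build not given in the sources used here. RMA corrects background, normalizes across arrays and summarises probes, which can compress changes of dim genes. Of 35556 probe sets, 21789 had 1 symbol, 1621 several and 12146 were not named. For each gene the brightest probe set (highest mean over all arrays) was kept, which left 19938 genes. The deposited log2 values were fitted with limma 3.58.1 in R 4.3.3 (4 group means, 12 residual degrees of freedom, eBayes, two-sided, Benjamini-Hochberg over all genes), and tested on simulated data. The interaction shares arrays with every other comparison, and each HDM comparison with each genotype comparison. Intervals are limma's 95% intervals, and the number of arrays limits precision. The members, gene lists and arrays that stand apart were chosen with earlier results of these data known. Outside the 10 genes, the text names from each list up to 4 of the largest changes that passed per comparison, filled to 1 by the smallest p, with Cxcr2, Csf3r, Il23a, Lcn2, S100a8, S100a9 and Vldlr always allowed, and for Cxcl5 and Il17a the 4 genes of highest Pearson r. List members without a probe set of their own were not analysed here. Alternatives were quantile normalization, a common array median, a filter at the 50th percentile, a variance trend, array weights, fitting just the groups of a comparison, averaging the probe sets of a gene, a replicate block, each array or both WT saline 2 and 3 left out, and an added 2-fold threshold. Same-numbered arrays deviated together (r over 0.1) in 7 of 24 pairs (r from -0.28 to 0.33), so the numbers were not taken as pairs.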

Additional observations from a re-analysis of the deposited data

Results flagged for a closer look

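A result was listed here where the HDM change differed between genotypes by limma's interaction test. Among the genes of all the lists used, 8 did: Il17rb, the interleukin-25 receptor chain, with an interaction of 0.68 (adjusted p = 0.0175), the clock output gene Dbp with -1.27 (adjusted p = 0.00744), the club cell secretoglobin Scgb3a2 with -0.98 (adjusted p = 0.0309), the surfactant protein gene Sftpd with -0.59 (adjusted p = 0.032), Lamp3, a marker of alveolar type 2 cells, with -0.54 (adjusted p = 0.0173), the collagen gene Col1a1 with 0.42 (adjusted p = 0.0253), the matrix proteoglycan Dcn with -0.56 (adjusted p = 0.0369), and Ear6, an eosinophil-associated ribonuclease, with 1.48 (adjusted p = 0.0277). None of the 10 neutrophil chemokine and type 17 genes was among them. Over all genes, 0.802% passed the interaction test, so none of 10 passing is not a trait of these genes. Without both WT saline 2 and 3 none of the 8 passed (adjusted p = 0.118 for Il17rb, 0.065 for Dbp, 0.159 for Scgb3a2, 0.168 for Sftpd, 0.102 for Lamp3, 0.101 for Col1a1, 0.118 for Dcn and 0.166 for Ear6). All 8 kept their sign. In the same order, the interactions were then 0.63, -1.21, -0.89, -0.55, -0.54, 0.46, -0.61 and 1.25. Fewer arrays in a group also widen the SE, so a lost call is not by itself a change of size. With 1 array left out, the Sftpd call ended without WT saline 2 or 3, WT HDM 4, KO saline 3 or 4 or KO HDM 1 or 2, and the Scgb3a2 call ended without WT saline 2 or 3, WT HDM 2 or 4, KO saline 2, 3 or 4 or KO HDM 1, 2 or 3 (adjusted p up to 0.0769 and 0.0741). The Dcn call held only without WT HDM 1, WT HDM 3 or KO HDM 4 (adjusted p otherwise up to 0.0838). The Col1a1 call ended without WT saline 2 or 3, WT HDM 2 or 4, KO saline 2, 3 or 4 or KO HDM 3, and the Ear6 call without WT saline 2 or 3, WT HDM 2 or 4, KO saline 2 or 4 or KO HDM 1 or 2 (adjusted p up to 0.0633 and 0.0672). No array of the 10 genes lay apart from the other 3 of its group by Dixon's test at its 95% critical value, in 40 groups.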

How the results depend on the processing

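The fall of Cxcl5 kept its direction and passed in both genotypes under every alternative that tested it. The filter at the 50th percentile leaves Cxcl5 out, and 0 of the 10 genes then passed with HDM in wild type and 0 in the knockout, because only Cxcl15 and Il17ra are tested there. With array weights 2 passed in wild type (Cxcl2, 0.77, adjusted p = 0.0182), 2 in the knockout (Il6, 0.55, adjusted p = 0.0272) and 1 between genotypes under HDM (Cxcl2, -0.80, adjusted p = 0.0267). With the replicate number as a block, 1 passed between genotypes under HDM, Cxcl5 at 0.27 (adjusted p = 0.0451). With 1 array left out, the number that passed lay between 1 and 2 in wild type, 1 and 2 in the knockout and 0 and 2 between genotypes under HDM. With quantile normalization, 5 neutrophil markers fell in wild type.

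The changes that turned sign were all close to 0 and did not pass. With quantile normalization these were Cxcl1 under saline between genotypes (0.017) and under HDM (-0.0057), Il17f under HDM (-0.020), and the interactions of Cxcl1 (-0.022) and Cxcl15 (0.0088). With a common median they were Cxcl15 in wild type (0.021), Cxcl1 under saline (0.011), Il17f under HDM (-0.0041) and the Cxcl1 interaction (-0.0051). With array weights they were Cxcl15 (0.0039) and Il17a (-0.00027) in wild type, Cxcl1 (0.025) and Cxcl5 (0.0019) under saline, Cxcl1 (-0.041), Cxcl15 (-0.013) and Il17f (-0.0077) under HDM, and the Cxcl1 interaction (-0.066). Without both WT saline 2 and 3 they were Cxcl15 (0.023) and Il17a (-0.034) in wild type, Cxcl1 (0.029) and Il17ra (0.024) under saline, and the Cxcl1 interaction (-0.0097). With 1 array left out, the wild-type change lay between -0.030 and 0.12 for Cxcl3, -0.036 and 0.019 for Cxcl15, -0.049 and 0.030 for Il17a and -0.18 and 0.048 for Il6. Between genotypes under saline it lay between -0.057 and 0.068 for Cxcl1, -0.049 and 0.048 for Cxcl3, -0.13 and 0.012 for Cxcl5 and -0.042 and 0.017 for Il17ra. Under HDM it lay between -0.056 and 0.071 for Cxcl1, -0.0056 and 0.056 for Cxcl15 and -0.061 and 0.054 for Il17f, and the Cxcl1 interaction lay between -0.055 and 0.076. The cause was not tested.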
